A study of Mus musculus with 8 samples.

Results

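Maturing red cell precursors condense and expel their nucleus and then clear most of their proteins and organelles. Of the 10 genes described here, 9 act in the ubiquitin system that marks proteins for removal at these stages (Ube2o, Ube2h, Ube2l6, Mkrn1, Trim58, Trim10, Dcaf12, Fbxo7 and Fbxo9), and the remaining gene, Xpo7, encodes exportin 7, a nuclear export receptor. They were chosen by known function and from the KO against WT results of these same samples, so the differences between the groups at these genes are given as a description, with no test of their own. The array has 21 probes for the 10 genes, of 45281 probes and 19057 named genes in all.

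The samples were CD71+Ter119+ cells sorted from the bone marrow of mice 8 to 12 weeks old, of a mixed strain, and RNA was measured on Illumina bead arrays, where brightness at a probe stands for the level of its transcript. By their labels, 4 samples were KO for KAP1, the corepressor encoded by Trim28 (A4, A8, A11, A13), and 4 were WT (C4, C6, C8, C9). Values are listed below in these orders. The labels give the Kap-flox/stopfloxYFP background for both groups. They do not name the Cre that deleted the gene, nor say whether each sample was 1 animal, so the spread between samples may be partly technical.

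Ubiquitin is passed from an activating enzyme to a conjugating enzyme (E2), and a ligase (E3) places it on a chosen protein. Many ligases are built on a cullin scaffold with an exchangeable receptor: F-box proteins such as Fbxo7 and Fbxo9 join SKP1 and CUL1, and DCAF proteins such as Dcaf12 join DDB1 and CUL4. In mouse erythroblasts nuclear condensation is accompanied by transient openings of the nuclear envelope through which histones leave.

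The intensities were normalized by the authors and none lay below 20, called the floor here. A value at the floor is an upper limit, and a fold against such values is uncertain. Trim28 itself ran from 131 to 207 in the KO samples and from 395 to 740 in the WT samples, a 3.28-fold difference without overlap (limma's adjusted p = 0.0085, log2 fold change -1.71, SE 0.27). The sort marker CD71 (Tfrc) averaged a log2 intensity of 12.93 in KO and 12.77 in WT. 2 arrays stood apart. On KO array A8, 441 of 12259 tested probes were at least 4-fold below the lowest of the other 3 KO arrays, and on WT array C8 66 were so against the other WT arrays, with 44 probes shared by both. The other 6 arrays had 9 such probes or fewer each. Among the member probes, 5 fell this way on A8 and 2 on C8, so each value that rests on them is also given without them.

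The windows around the transcription start of 4 members are shown because Dcaf12, Mkrn1 and Ube2h had the largest differences among members with such a sequence and without a drop on A8, and because Trim10 holds a match to the GATA motif. The sequences are RefSeq promoter windows of build GRCm38.p6, from 250 bases before to 50 after the start, read 5′ to 3′ on the strand of the gene. Capitals mark matches on either strand to AGATAA or TGATAA, which GATA factors such as GATA1 bind, and to CCNCNCCC, which fits KLF1 sites. Adjacent matches run together.

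Dcaf12, chr4:41314852-41315151, minus strand: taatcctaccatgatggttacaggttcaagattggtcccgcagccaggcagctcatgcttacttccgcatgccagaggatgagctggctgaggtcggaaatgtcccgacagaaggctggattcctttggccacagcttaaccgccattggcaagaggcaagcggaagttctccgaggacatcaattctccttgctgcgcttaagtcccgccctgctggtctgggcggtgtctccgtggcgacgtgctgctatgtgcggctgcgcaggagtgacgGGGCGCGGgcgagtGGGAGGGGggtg
Mkrn1, chr6:39420320-39420619, minus strand: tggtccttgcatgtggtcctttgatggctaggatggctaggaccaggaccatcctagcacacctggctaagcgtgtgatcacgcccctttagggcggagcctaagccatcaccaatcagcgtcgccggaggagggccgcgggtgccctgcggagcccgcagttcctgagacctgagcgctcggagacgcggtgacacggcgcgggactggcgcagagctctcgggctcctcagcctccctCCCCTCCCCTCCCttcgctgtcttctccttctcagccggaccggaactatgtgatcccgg
Ube2h, chr6:30304490-30304789, minus strand: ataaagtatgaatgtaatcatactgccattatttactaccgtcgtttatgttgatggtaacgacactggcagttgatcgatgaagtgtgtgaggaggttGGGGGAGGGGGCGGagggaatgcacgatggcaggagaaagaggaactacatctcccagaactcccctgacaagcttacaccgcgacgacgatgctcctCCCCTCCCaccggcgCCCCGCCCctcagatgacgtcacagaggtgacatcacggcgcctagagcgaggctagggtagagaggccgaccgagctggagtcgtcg
Trim10, chr17:36869324-36869623, plus strand: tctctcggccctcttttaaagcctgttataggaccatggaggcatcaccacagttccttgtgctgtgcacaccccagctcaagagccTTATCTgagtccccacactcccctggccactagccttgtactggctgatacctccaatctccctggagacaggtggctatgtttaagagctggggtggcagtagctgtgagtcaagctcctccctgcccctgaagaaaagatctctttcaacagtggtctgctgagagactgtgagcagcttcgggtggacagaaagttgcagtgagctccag

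Windows were at hand for 8 of the 10 members, 12 windows in all. The KLF1-type motif was found in 7 of these 12 windows, from 5 genes, against 49.5% of 32851 windows of the same length. The Ube2h window shown holds 5 matches to it. The GATA motif was found in 2 of the 12 windows, those of Trim10 and of an alternative Ube2h start, against 18.6% of all windows. Both shares lay near those of all windows.

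Of the 21 member probes, 15 exceeded the floor in 4 or more of the 8 samples and were tested with all other such probes. Of the 6 others, 1 of Trim10 and 2 of Xpo7 were at the floor on every array, and both Trim58 probes and 1 Fbxo7 probe rose above it in WT samples only. In the fit over all tested probes, 9 of the 15 were called lower in KO (adjusted p under 0.05 in limma), where 3.11% of all tested probes were. By the brightest tested probe of each gene, 7 of 9 measured genes were called lower and none higher, against 3.25% and 2.4% of 7178 genes. Every KO sample lay below every WT sample at 12 of the 15 probes and at 8 of the 9 genes, where 7.31% of probes and 7.38% of genes did so. Nothing is read from these shares, because the genes were chosen with this contrast known. The median log2 fold change of the 9 genes was -2.40, and that of all tested genes 0.11. With each sample left out in turn, 6 or 7 member genes were called lower (without A8, Trim10 was no longer called and Ube2l6 was), while the lower calls over all probes (381 with all samples) were 219 without A4, 197 without A11, 162 without A13, 163 without C4, 586 without C6, 245 without C8 and 173 without C9, and 317 without A8.

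**Figure D1:**
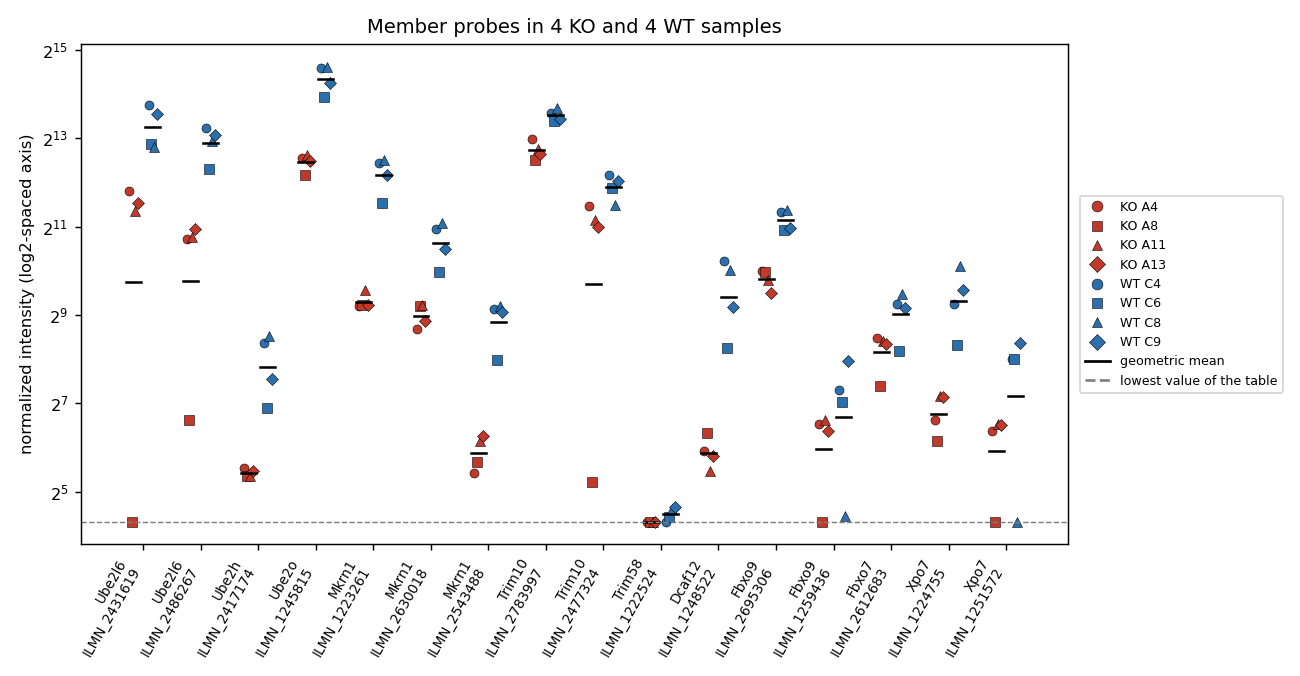
Normalized intensity on a log2-spaced axis at the 15 tested member probes and the brighter Trim58 probe, with a point for each sample and a line at each group's geometric mean; the dashed line is the floor of 20. KO points lie below WT points at 12 of the 15 tested probes, and A8 (red square) falls far below the other KO samples at both Ube2l6 probes and 1 Trim10 probe.

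Among the conjugating enzymes, Ube2o, a large hybrid E2 and E3 that marks ribosomal proteins for removal in mouse reticulocytes, was among the brightest. Its probe (ILMN_1245815) gave 5987, 4606, 6346 and 5727 in KO and 24536, 15745, 25180 and 19544 in WT. The groups were well apart, with the lowest WT value 2.48-fold above the highest KO value. The mean difference was 3.71-fold (log2 fold change -1.89, SE 0.21), and the WT values approached the top of the scale (36264.5), where differences can be compressed.

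Ube2h is the E2 of the CTLH ligase, the complex that holds MAEA and acts in erythroid maturation. Its probe (ILMN_2417174) was dim and nearly flat in KO, at 46.7, 41.2, 40.9 and 44.0, and gave 328, 119, 369 and 188 in WT. The KO samples spanned 1.14-fold and the WT samples 3.11-fold, without overlap. The mean difference was 5.29-fold (log2 fold change -2.40, SE 0.34). The KO values lay near the floor of 20.

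Ube2l6 encodes an interferon-induced E2 that carries the ubiquitin-like protein ISG15 as well as ubiquitin. Its brighter probe (ILMN_2431619) gave 3565, 20, 2607 and 2960 in KO and 13810, 7543, 7148 and 12050 in WT. The other (ILMN_2486267) gave 1691, 98.3, 1728 and 1985 in KO and 9626, 5083, 7869 and 8630 in WT. At both probes all KO values were below all WT values, and A8 alone was at or near the floor. The fold depended on that array: 11.3-fold and 8.74-fold with all samples, and 3.22-fold and 4.23-fold without A8. Neither probe was called with A8 included (SE 1.48 and 0.88 in log2), and the brighter probe was called lower without it (log2 fold change -1.69).

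Among the single-protein RING ligases, Mkrn1, a makorin that also binds RNA, had 3 tested probes. The brightest (ILMN_1223261) gave 587, 595, 754 and 594 in KO and 5594, 2988, 5870 and 4635 in WT. The KO samples lay within 1.28-fold of each other, and the gap to the lowest WT sample was 3.96-fold. The log2 means were 9.30 ± 0.17 in KO and 12.17 ± 0.44 in WT (SD, n = 4 each), a 7.34-fold difference. The dimmest probe (ILMN_2543488) gave a similar 7.83-fold difference, from 251 to 592 in WT and from 42.8 to 76.9 in KO. The third (ILMN_2630018) gave a smaller one of 3.11-fold, from 1004 to 2164 in WT and from 408 to 597 in KO. All 3 probes were without overlap between groups and called lower, and a probe assigned to the pseudogene Mkrn1-ps1 was at the floor on all 8 arrays.

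Trim10 and Trim58 are TRIM ligases of the erythroid lineage. Trim10 is needed for terminal differentiation in mouse erythroid cells. Its brightest probe (ILMN_2783997) gave 8076, 5870, 6910 and 6429 in KO and 12149, 10747, 13262 and 11078 in WT, a 1.74-fold difference (log2 fold change -0.80, SE 0.18). The groups did not overlap, and the gap between them was 1.33-fold. This call was the least stable among the members, since it was kept only without A4 or without C6 and lost without any of the other 6 samples. Its other tested probe (ILMN_2477324) gave 2853, 37.5, 2255 and 2047 in KO and 4635, 3728, 2868 and 4182 in WT. That difference was 4.53-fold with all samples and 1.61-fold without A8, and was not called.

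Trim58, which marks the motor protein dynein for degradation in late mouse erythroblasts and promotes enucleation, was barely detected. Its brighter probe (ILMN_1222524) was at the floor of 20 in all 4 KO samples and in WT C4, and reached 21.5, 24.4 and 25.2 in C6, C8 and C9. The other probe (ILMN_3083287) was at the floor in all samples but C6 (20.3). No change of this gene could be seen at this sensitivity, in either direction.

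Dcaf12, a DDB1-CUL4 receptor that in human cells recognises glutamates at the ends of proteins, had the largest difference among members not resting on A8. Its probe (ILMN_1248522) gave 60.7, 80.8, 44.2 and 56.4 in KO and 1195, 303, 1032 and 580 in WT. The lowest WT sample was 3.75-fold above the highest KO sample, while the WT samples themselves spanned 3.94-fold. The log2 means were 5.89 ± 0.36 and 9.41 ± 0.90 (SD, n = 4 each), an 11.5-fold difference (log2 fold change -3.53, SE 0.42).

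The F-box genes had differences of about the size of that at Trim10 or somewhat larger. Fbxo9, an F-box protein reported to target TEL2 and TTI1 in human myeloma cells, gave 1029, 1000.0, 882 and 719 in KO and 2588, 1930, 2669 and 1998 in WT at its brighter probe (ILMN_2695306). The groups did not overlap, and the difference was 2.53-fold (log2 fold change -1.34, SE 0.20). Its dimmer probe (ILMN_1259436) gave 91.9, 20, 99.0 and 82.5 in KO and 157, 130, 21.8 and 250 in WT. The values at or near the floor were those of A8 and C8, and the difference was 1.65-fold with all samples and 1.89-fold without these 2 arrays (1.13-fold without A8 alone, 2.77-fold without C8 alone).

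Fbxo7, whose loss causes anaemia in mice and parkinsonism in humans, was the single measured member whose groups overlapped at its brightest probe. That probe (ILMN_2612683) gave 358, 168, 339 and 327 in KO and 608, 291, 709 and 567 in WT. C6, the lowest WT sample, lay below 3 of the 4 KO samples. The difference was 1.81-fold (log2 fold change -0.85, SE 0.34), 1.51-fold without A8, and was called under none of the 15 alternative settings tried.

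Xpo7 is strongly expressed in maturing erythroid cells, and its knockdown impairs nuclear condensation and enucleation in mouse erythroblasts. Its brightest probe (ILMN_1224755) gave 98.4, 70.4, 144 and 141 in KO and 613, 320, 1104 and 755 in WT. The groups did not overlap, with a 2.22-fold gap, and both varied, KO by 2.05-fold and WT by 3.45-fold. The mean difference was 5.84-fold (log2 fold change -2.55, SE 0.39). A second probe (ILMN_1251572) gave 83.2, 20, 91.9 and 90.7 in KO and 256, 257, 20 and 331 in WT. It was at the floor in A8 and C8 only, and its difference was 2.37-fold with all samples, 1.63-fold without A8, 4.58-fold without C8 and 3.15-fold without both. It was not called.

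**Figure D2:**
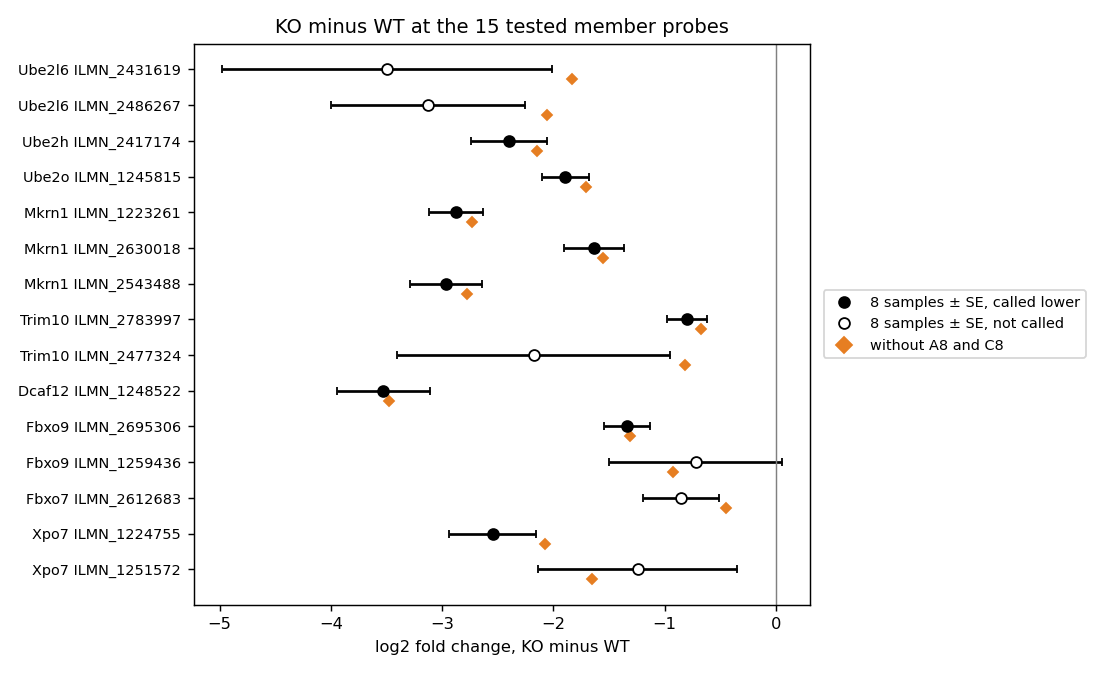
Log2 fold change of KO minus WT with its SE at each tested member probe (circles, filled where called lower) and the value without A8 and C8 (diamonds). All 15 values lie below 0, and the probes with wide errors are those where A8 or C8 dropped, such as Ube2l6 ILMN_2431619 at -3.50 with all samples and -1.84 without both arrays.

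The choice of genes did not use the order of samples inside a group. Genes chosen as lower in KO can still share such an order, so the shares of all genes below are only a rough guide. Within WT, C6 was the lowest sample for 8 of the 9 measured members, Ube2l6 being the exception, and C6 was lowest for 23.2% of the 6187 tested genes with distinct WT values. C8 was the highest WT sample for 7 of the 9, against 31.3% of all genes. The median deviation from the WT mean over the 9 members was 0.24 in C4, -0.63 in C6, 0.35 in C8 and -0.09 in C9 on the log2 scale, and the median over all genes was within 0.04 of 0 in each. Dcaf12 had the widest swing, at 1.17 below the WT mean in C6 and 0.81 above it in C4, and Trim10 the narrowest, at 0.13 below and 0.17 above. C6 was also the lowest WT sample for Trim28 (395, next to 406 in C9) and for the mean of 24 late erythroid markers. The mean of 6 genes of the erythroid lineage and the sort was likewise lowest in C6 (9.63) and highest in C8 (10.57). Neutrophil markers (12.37 in C6, 10.95 in C8) and macrophage markers (7.16 and 6.27) were highest in C6 and lowest in C8. B-cell and T and NK markers were highest in C4. The part of the cell mix in the order of the members was not tested.

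**Figure D3:**
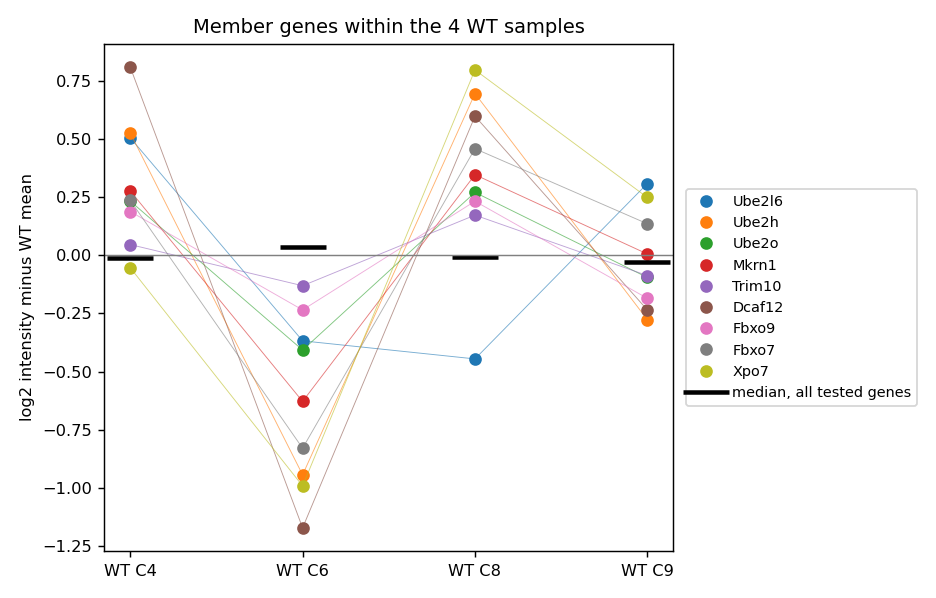
Log2 intensity minus the WT mean for the 9 measured members in each WT sample (points joined by gene for reading only) and the median over all tested genes (black bars). The members lie between -1.17 and -0.13 in C6, while the black bars stay near 0 in all 4 samples.

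Within KO, A4 was the highest sample for 5 of the 9 members (18.1% of 6462 tested genes with distinct KO values) and A8 the lowest for 5 of the 9 (24.4% of those genes). Without counting Ube2l6, where A8 was at the floor, the deviations of the members in KO ran from -0.77 (Fbxo7 in A8) to 0.45 (Dcaf12 in A8). The widest deviation of Ube2h in KO was 0.11, in A4.

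Some markers of cell stage and type also differed between the groups. Of 24 measured late erythroid markers, 5 were called lower (20.8%) and none higher, with a median log2 fold change of -0.47. At an unadjusted p under 0.05 in limma, 11 of the 24 were lower and 0 higher. Their mean log2 intensity was 10.09 to 10.87 in KO, lowest in A8, and 11.07 to 11.63 in WT, lowest in C6. Those called were Bnip3l, the mitophagy receptor of red cell precursors (4.13-fold, adjusted p = 0.00131 in limma), Alas2, Tmcc2, Slc25a39 and Bcl2l1. Several others changed little, such as Hbb-bt (log2 fold change -0.12), Hba-a1 (-0.26) and Aqp1 (-0.05). In WT, Hbb-bt (mean log2 intensity 14.97) and Hba-a1 (14.71) were brighter than Ube2o (14.35). Their differences can therefore also be compressed near the top of the scale. Nfe2 (0.03), Gypc (0.32) and Rhd (0.62) were higher on average. The low mean of A8 rested in part on single genes. Without A8, Fech was 2.89-fold lower in place of 8.28-fold, and Bcl2l1 5.97-fold in place of 10.4-fold. Rhag turned from -0.43 to 0.65 on the log2 scale. None of 6 genes of the erythroid lineage and the sort, Klf1, Gata1 and Epor among them, was called in limma, at an unadjusted p under 0.05 or in the unequal-variance test (0 of 6 in each). The mean of 9 B-cell markers was 6.95 to 8.10 in KO and 8.06 to 9.30 in WT. All 9 had a lower KO mean, 7 of them at an unadjusted p under 0.05, and H2-Aa was called (2.04-fold lower, adjusted p = 0.0425 in limma). B-cell transcripts were clearly detected, with Cd74 at 1043 to 2443 in KO and 2681 to 4160 in WT, and Cd79b at 245 to 624 in KO and 663 to 1642 in WT. The means of 5 progenitor markers (5.53 to 6.69 in KO, 5.17 to 5.63 in WT), of 4 megakaryocyte and platelet markers (6.59 to 6.82, and 5.18 to 5.66) and of 4 mast cell and basophil markers (6.34 to 6.79, and 5.48 to 6.15) had higher midpoints in KO, with overlap for the progenitor list only. Called among these were Tubb1, Cpa3 and Fcer1a, which rose, and Prss34, which fell. None of the 5 progenitor markers was called, and 2 were higher and 0 lower at an unadjusted p under 0.05 in limma. Tubb1 was at the floor in all 4 WT samples, so its probe was tested only through its KO values and its fold is uncertain. The difference of the platelet list rested largely on Tubb1 (log2 fold change 3.53, against 0.73 for Pf4, 0.88 for Itga2b and 0.14 for Gp9). The means of neutrophil, macrophage and T and NK cell markers overlapped between groups, and of their genes only Cd2, in the T and NK list, was called (3.26-fold lower, adjusted p = 0.0132). Of these lists' defining markers, Pax5 (B cells), Ms4a2 (mast cells) and Ppbp (platelets) were at the floor in all samples, although other markers of the same types were detected, such as Gp9 of platelets (192 to 322 over all samples). The part of these shifts in the values of the members was not tested. In sorted bulk cells, fewer cells at a late stage and less of a transcript per cell cannot be told apart.

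The members were chosen with this contrast known, so nothing is read from the distance between their median and that of the other genes of the pathway. Of 173 measured genes in 10 lists outside the members, 11 were called lower (6.36%) and 2 higher (1.16%), against 3.25% and 2.4% of all genes. The median log2 fold change of the 173 was 0.10, as for all genes (0.11). The 11 lower calls became 7 without A4 or A8, 5 without A11, A13, C4 or C8, 6 without C9 and 13 without C6. The 2 higher calls ranged from 0 to 5.

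Of 22 other E1 and E2 enzymes, 4 were called lower and none higher. Ube2b, the E2 that works with RAD18 in DNA damage tolerance, gave 686, 562, 695 and 645 in KO and 3042, 2238, 2567 and 2219 in WT, a 3.87-fold difference (adjusted p = 0.00113 in limma). Ube2r2, a CDC34-type E2 of SCF ligases, fell 3.54-fold (adjusted p = 0.00957, 2 KO samples at the floor), Ube2f, which passes NEDD8 to cullin 5, fell 3.12-fold (adjusted p = 0.00603), and Ube2d3 fell 1.74-fold (adjusted p = 0.0368). Ube2l3, a close relative of Ube2l6, had KO values of 573 to 759 and WT values of 487 to 746, and was not called (adjusted p = 0.545).

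None of the 23 measured cullin-RING core genes was called in limma. Cul4a (1.43-fold lower, limma's adjusted p = 0.18) and Ddb1 (1.38-fold lower, adjusted p = 0.262) are the partners of Dcaf12. They were the only 2 of the 23 with a log2 fold change below 0, and the median of the list was 0.32. At an unadjusted p under 0.05, 1 of the 23 was lower and 3 were higher. Of the 15 other DDB1-CUL4 receptors none was called in limma, and 2 were lower and 1 higher at an unadjusted p under 0.05. The unequal-variance test called 0 in both lists. Of 30 other F-box genes, Fbxo30 (2.71-fold, adjusted p = 0.0317) and Fbxw2 (1.78-fold, adjusted p = 0.0354) fell and Fbxo10 rose (1.64-fold, adjusted p = 0.0459). Of 17 other TRIM and makorin genes, Trim26 (1.91-fold, adjusted p = 0.0311) and Trim34a (2.67-fold, adjusted p = 0.0357) fell.

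Of 8 measured genes of the CTLH complex, which uses Ube2h, only Ypel5 was called. It gave 1331, 1148, 1759 and 1495 in KO and 5675, 3972, 5417 and 4750 in WT, a 3.47-fold fall (adjusted p = 0.00228). Ranbp10, another subunit, was 1.48-fold lower without passing (adjusted p = 0.194), and Wdr26, a subunit reported to act in nuclear condensation of erythroblasts, was at the floor on all arrays. Maea was 1.37-fold higher with all samples and 2.08-fold higher without A8. Gid8 (1.30-fold) and Mkln1 (1.17-fold) were also higher on average, and 5 of the 8 measured genes were lower on average. The 7 measured partners and substrates of members had no calls in limma, 1 lower and 2 higher at an unadjusted p under 0.05, and 1 call in the unequal-variance test. Of these, Isg15, carried by Ube2l6, was 2.0-fold lower with overlap (520 to 2540 in KO, 2145 to 4784 in WT, adjusted p = 0.245) and 1.39-fold lower without A8, which gave the 520, and Uba7, the enzyme that activates ISG15, was 1.56-fold higher without passing (adjusted p = 0.0581). None of the 13 ubiquitin and deubiquitinase genes was called in limma or the unequal-variance test (0 each), and 1 was lower and 1 higher at an unadjusted p under 0.05.

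Of 24 other nuclear transport genes, only the importin gene Kpna1 was called (1.84-fold lower, adjusted p = 0.0467). The median log2 fold change of that list was 0.21. Of 14 genes of nuclear condensation and enucleation, Diaph3, a formin needed for enucleation of mouse erythroblasts in culture, fell 3.93-fold (adjusted p = 0.0032), from 1358 to 2308 in WT to 350 to 564 in KO. Plek2, a pleckstrin of the erythroid cytoskeleton, rose 2.65-fold (adjusted p = 0.0354), from 196 to 397 in WT to 456 to 1024 in KO. The lamin gene Lmnb1 was 1.14-fold lower, or 1.03-fold higher without A8, and not called (adjusted p = 0.714).

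**Figure D4:**
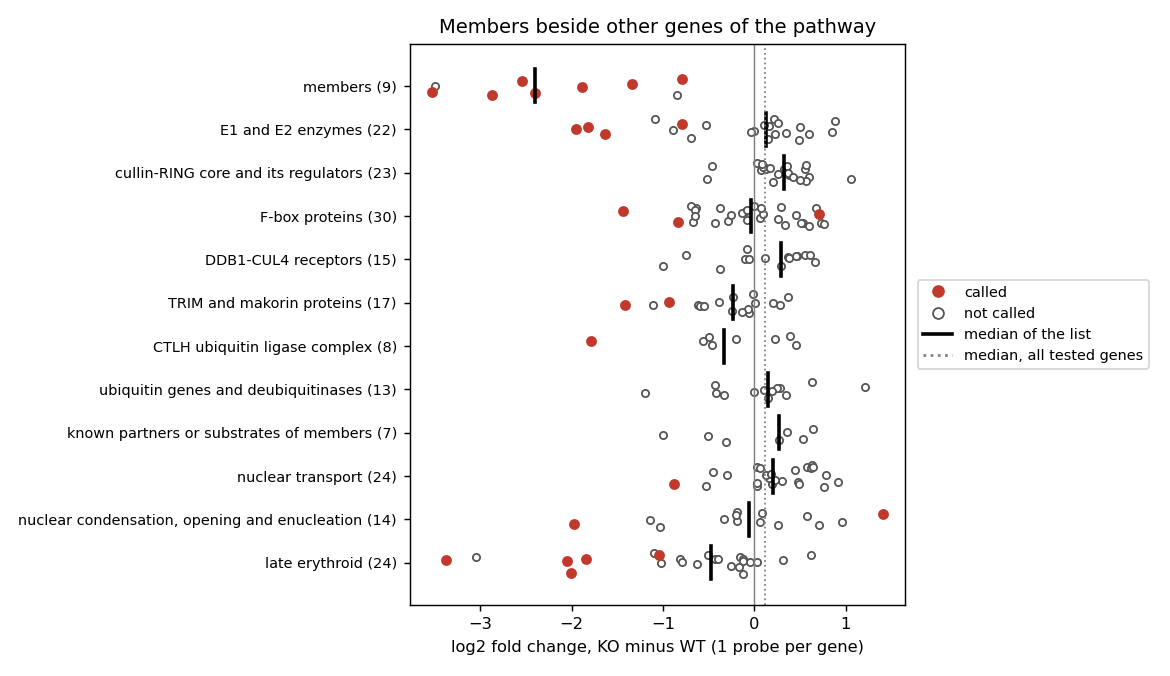
Log2 fold change of KO minus WT for the 9 measured members, 10 lists of other genes of the pathway and the late erythroid markers, with 1 probe per gene (filled where called); bars mark the median of each list and the dotted line that of all tested genes. The members' median is -2.40, which their choice with this contrast known favours, and the medians of the 10 other lists lie between -0.33 and 0.32.

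The 5 genes outside the members whose profile over the 8 samples was most like the mean standardized profile of the 9 measured members were Xpa, a DNA repair gene (Pearson r = 0.991), Specc1 (0.991), Marchf2, which encodes a membrane-bound RING ligase (0.990), Cript (0.990) and Abhd4 (0.988). The members' mean profile was lowest in A8 (-1.24) and highest in C8 (1.16). All 5 genes had no overlap between groups and were between 2.54-fold and 4.22-fold lower on average, so the difference between groups makes up much of the likeness. Marchf2 gave 2797, 2206, 2676 and 2366 in KO and 11004, 5561, 10821 and 9359 in WT. C6 was the lowest WT sample for all 5 genes and A8 the lowest KO sample. This is no separate observation, because the genes were picked for likeness to a profile lowest in A8 and, within WT, in C6 (0.30).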

How the data were processed

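Intensities were taken as deposited, on a linear scale for 45281 probes. The submitters' processing notes name BeadStudio 3.1.3, used by the authors, but no source used here gives the background or normalization settings. At 4959 of the 5000 highest ranks the 8 arrays held the same value to within 0.1 percent, a pattern left by quantile normalization, and between 73.1% and 73.2% of probes sat at the lowest value, 20, on each array. A table of signals before normalization has 8 columns named by no sample label and was not used, nor was the authors' table of fold changes, which rests on the same values.

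Values were converted to log2. Probes above 20 on at least 4 of the 8 arrays (12259) entered a KO against WT test without covariates (limma 3.58.1, lmFit then eBayes; R 4.3.3). The threshold was 0.05 after Benjamini-Hochberg adjustment across those probes. Folds are ratios of geometric means, and SEs are those of the moderated fit. The sample of each column was given by its header and its group by its title. Probes were named by the platform table, which gives 1 gene for 34885 probes; 34807 were matched to the RefSeq table of GRCm38.p6. For each gene the brightest tested probe was used. The fit was tested on simulated data.

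The members and lists were chosen with earlier results of these data known. Named were all members, Trim28 and up to 4 called genes per pathway list with the smallest p. Also named were the 5 genes most like the members in profile, and markers and partners that bear on a member. Cul4a, Ddb1, Ube2l3, Ranbp10, Wdr26, Maea, Gid8, Mkln1, Isg15, Uba7 and Lmnb1 were named after their values were seen. The number of arrays limits the precision. The alternatives were the filter, the floor, array weights with an intensity trend, an unequal-variance test, the mean over probes and each sample left out; leaving out A8 and C8 together was added after the data were seen.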

Additional observations from a re-analysis of the deposited data

Results flagged for a closer look

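In 12 of 68 groups of 4 samples examined (17.6%), 1 sample lay far from the other 3 by Dixon's criterion on log2 intensity, and in 8 of the 12 it was KO A8. Chance gives about 5% for independent groups. These groups share the same 8 arrays and include the 5 genes picked for likeness to the members, so the 5% is only a rough guide. For the members, A8 was low at Ube2l6 (20 against 2607 to 3565 at ILMN_2431619, and 98.3 against 1691 to 1985 at ILMN_2486267), at Trim10 (37.5 against 2047 to 2853 at ILMN_2477324) and at Fbxo7 (168 against 327 to 358 at ILMN_2612683). It was also low, at 20, at Fbxo9 ILMN_1259436 (others 82.5 to 99.0) and at Xpo7 ILMN_1251572 (others 83.2 to 91.9). WT C8 was at 20 at that Xpo7 probe too (others 256 to 331).

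The other flagged member values were both of Mkrn1. KO A11 was high at ILMN_1223261 (754 against 587 to 595), and WT C6 was low at ILMN_2543488 (251 against 537 to 592). Among the genes most like the members, Specc1 was low in A8 (2008 against 2773 to 2808) and Cript was low in A8 (79.5 against 109 to 113) and in WT C6 (250.2 against 342 to 358). No cause of these values was tested.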

How the results depend on the processing

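All 9 measured members kept a log2 fold change below 0 under every alternative run. Mkrn1 and Ube2o were called lower in all 15, and Dcaf12, Fbxo9, Ube2h and Xpo7 in 13 of 15. Member genes called lower (7 as reported) were 2 with no filter on probes at the floor, 4 with an unequal-variance test and 5 with each gene as the mean of its tested probes, and 6 to 7 with 1 sample left out. Member probes (9) were 3, 5 and, with 1 sample left out, 8 to 10. Over all tested probes, 301 higher and 381 lower became 74 and 78 with no filter, 94 and 114 with the unequal-variance test, and 1029 and 806 with array weights and an intensity trend. The higher calls were 171 for probes above the floor on all 8 arrays and 187 without A8 and C8. With 1 sample left out they were 91 to 557 higher and 162 to 586 lower. Pathway genes outside the members (11 lower, 2 higher) became 3 and 0 with no filter, 5 and 1 with the unequal-variance test, and 18 and 13 with array weights. The higher calls were 5 with values below 40 raised to 40, and the lower calls 5 without A8 and C8. With 1 sample left out they were 5 to 13 lower and 0 to 5 higher. With no filter 45281 probes are tested in place of 12259. The causes of these changes, with no filter or in the other settings, were not tested. Normalizing the signals before normalization was not run, since their columns match no sample label. No paired analysis was possible because the sample codes share no stated pairing between the groups.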
